A study of Mus musculus with 8 samples.

Results

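The genes described here are 10 core members of the mouse Notch pathway, taken by symbol from a list, out of 43346 gene identifiers in the count tables. They comprise the 4 receptors Notch1, Notch2, Notch3 and Notch4, the 4 ligands Dll1, Dll4, Jag1 and Jag2, and the target genes Hes1 and Hey1. RNA-Seq was performed on notochord-derived cells in mid-gestation (embryonic day 12.5, E12.5) and on the day of birth (postnatal day 0, P0), with 4 litters at each stage, to follow the notochord as it forms the nucleus pulposus (NP), the core of the intervertebral disc. All litters carried the same alleles, Shh-cre;ROSA:YFP, in which Cre expressed from Shh switches on YFP in Shh-expressing notochord cells and in their descendants. No other genotype or treatment was used, and each sample was RNA pooled from the embryos or pups of 1 litter, so that p-values measure the spread between litters. At E12.5 (litters NDP10.2, NPD3, NPD4 and NPD9.2), whole notochords were dissected and lysed without sorting. At P0 (litters NPD26, NPD27, NPD28 and NPD30), NP cells were shaken loose from thoracic and lumbar discs, strained and sorted for YFP before lysis. Stage and way of isolation therefore cannot be told apart in any difference given here.

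Notch receptors are single-pass membrane proteins that are activated by Delta-like and Jagged ligands on a neighbouring cell. Ligand binding exposes the receptor to a metalloprotease and then to gamma-secretase, and the freed intracellular domain joins the DNA-binding protein RBPJ and a Mastermind-like coactivator to switch on Hes and Hey genes, which encode transcriptional repressors. In the embryo the pathway directs segmentation of the somites next to the notochord, neurogenesis in the neural tube above it, and the growth of blood vessels and their mural cells.

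Of the 10 members, 5 were lower at P0 than at E12.5 and 0 were higher, whereas 12.0% of the 15467 genes tested by edgeR were lower and 16.0% higher (15.01% and 13.61% with upper quartile scaling). No member was higher at an unadjusted p under 0.05 either, nor by DESeq2 or limma-voom. The 5 were the receptor Notch3, the ligands Jag1 and Dll1, and the targets Hes1 and Hey1. The receptors Notch1, Notch2 and Notch4 and the ligand Jag2 did not pass the test, and the ligand Dll4 had too few reads to be tested. Notch3 had the largest fitted change of the 9 tested members, 13.4-fold lower at P0. The members were chosen with earlier results of these data known, so their count beside all genes is a description and not a test. In bulk RNA, fewer cells of a type and less RNA per cell cannot be told apart.

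To show the DNA at which the receptor and both ligands that fell are started, the 250 bases before their annotated start sites are given as RefSeq lists them for GRCm38.p6, read 5′ to 3′ on the gene's own strand. RefSeq promoter entries were matched by symbol for 8 of the 10 members, 9 entries in all, since Dll1 has 2 start sites. Hes1 and Hey1 had none. Capitals mark a match to the HEY and HES site, searched as CACGTG, which reads the same on both strands, and as CACGCG, which reads CGCGTG on the other strand.
Notch3, chr17:32166891-32167140, minus strand: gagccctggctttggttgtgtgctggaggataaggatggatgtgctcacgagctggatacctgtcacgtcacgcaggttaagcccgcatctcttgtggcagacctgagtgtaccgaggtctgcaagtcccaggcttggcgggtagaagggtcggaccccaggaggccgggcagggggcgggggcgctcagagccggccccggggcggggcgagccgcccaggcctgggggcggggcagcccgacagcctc
Dll1, downstream start, chr17:15375824-15376073, minus strand: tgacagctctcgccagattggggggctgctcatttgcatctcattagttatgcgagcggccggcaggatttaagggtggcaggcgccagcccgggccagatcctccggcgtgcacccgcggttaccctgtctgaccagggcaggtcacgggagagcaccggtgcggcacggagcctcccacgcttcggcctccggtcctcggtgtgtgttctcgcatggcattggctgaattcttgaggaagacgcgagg
Dll1, upstream start, chr17:15376933-15377182, minus strand: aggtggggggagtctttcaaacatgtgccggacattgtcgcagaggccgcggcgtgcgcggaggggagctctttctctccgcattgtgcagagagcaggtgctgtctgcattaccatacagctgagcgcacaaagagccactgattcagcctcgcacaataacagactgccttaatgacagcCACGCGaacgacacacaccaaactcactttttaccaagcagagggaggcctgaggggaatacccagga
Jag1, chr2:137116521-137116770, minus strand: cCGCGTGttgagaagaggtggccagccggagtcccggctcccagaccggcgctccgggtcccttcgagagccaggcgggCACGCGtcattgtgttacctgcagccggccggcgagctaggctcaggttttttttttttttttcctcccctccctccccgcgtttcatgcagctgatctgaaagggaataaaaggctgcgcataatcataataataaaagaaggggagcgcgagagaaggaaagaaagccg
The Jag1 window held 2 matches, which begin 249 and 171 bases before the start site, and the upstream Dll1 window held 1, which begins 68 bases before it. Notch2 and Dll4 held 1 match each, so that 4 of the 9 member windows had a match. Of 32841 RefSeq promoter windows of the same length, 12.9% had a match. The core of the RBPJ site, searched as TGGGAA and TTCCCA, was in 0 of the 9 member windows and in 21.6% of all windows. No match overlapped another. The member windows were 56% to 87.2% G or C, and the RefSeq windows were not matched to them in base content. Their shares are therefore not a like comparison. The matches are letters in a window and not measured binding.

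Depth was 4442775 to 7180221 reads on genes in the E12.5 litters and 6371842 to 8904050 in the P0 litters, and 3 reads, taken as the floor of detection, correspond to 0.337 to 0.675 counts per 1000000 reads of the library (CPM). Floors cover counting error only. Reads that fell on more than 1 gene, which the counting leaves out, made up 16.3% and 17.5% of the tallied reads in E12.5 litters NDP10.2 and NPD9.2, against 10.6% to 11.6% in the other E12.5 litters and 7.07% to 10.5% at P0. Summed notochord markers were 979 to 3311 CPM at E12.5 and 1001 to 4065 CPM at P0, with 1 higher and 2 lower of 7 tested and Noto, a notochord transcription factor, at or under the floor in every litter. Leukocyte markers were higher at P0, 12 of 12, with sums of 928 to 8052 CPM against 59.0 to 162 CPM, and so were 5 of 5 tested osteoblast markers. Sclerotome markers (7 of 7), myogenic markers (4 of 4) and primitive erythroid globins (3 of 3) were lower at P0, the sclerotome sum being 121.5 to 199 CPM at E12.5 and 5.03 to 16.1 CPM at P0. Of Schwann and neural crest markers, 4 of 5 were lower, with sums of 276 to 527 CPM in the E12.5 litters and 23.3 to 635.5 CPM in the P0 litters. Of 7 tested neural tube markers 2 were lower. The sum of the list was 338 to 887 CPM at P0. At E12.5 it was 2046 CPM in litter NPD4 and 202 to 349 CPM in the other litters. Most of the NPD4 sum came from the neuron genes Stmn2 (685.5 CPM), Tubb3 (573 CPM), Dcx (376 CPM) and Elavl3 (287 CPM). Of the progenitor genes, Nes (67.1 CPM) and Pax6 (1.56 CPM) had their lowest E12.5 value there and Neurog1 (43.6 CPM) its highest.

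**Figure D1:**
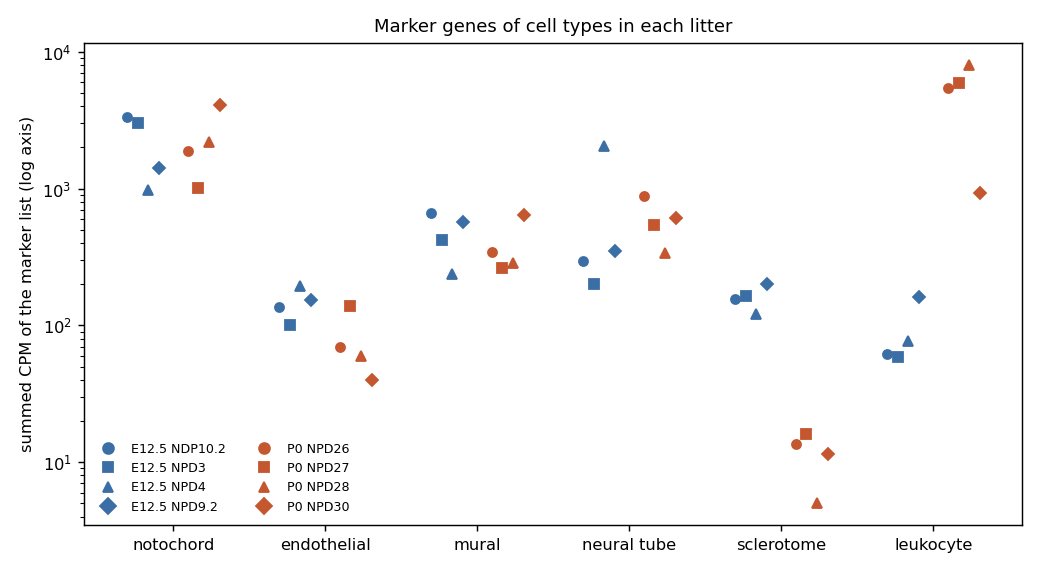
Summed CPM of 6 marker lists (log axis) for each litter, with E12.5 in blue and P0 in orange and 1 symbol per litter. Leukocyte sums lie at 928 CPM or above in the P0 litters and at 162 CPM or below at E12.5, sclerotome sums show the reverse order, and the notochord and mural sums of the stages overlap.

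The receptors are described first. Levels are CPM on trimmed-mean (TMM) library sizes, given for E12.5 in the order NDP10.2, NPD3, NPD4, NPD9.2 and for P0 in the order NPD26, NPD27, NPD28, NPD30. A gene was called higher or lower at an adjusted p under 0.05 in edgeR's quasi-likelihood test with Benjamini-Hochberg adjustment over the 15467 genes, which called 27.9% of them in either direction.

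Notch3 (chr17:32120820-32166852, minus strand), a receptor best known from vascular mural cells, was at 107, 75.9, 56.3 and 131 CPM in the E12.5 litters and at 5.14, 7.26, 5.15 and 9.96 CPM in the P0 litters. The stages did not overlap, and the highest P0 litter, NPD30, lay far below the lowest E12.5 litter, NPD4. The mean was 92.6 ± 33.2 CPM (SD, n = 4) at E12.5 and 6.88 ± 2.29 CPM (SD, n = 4) at P0. The log2 fold change of Notch3 was -3.74 (SE 0.35; adjusted p = 0.000112), and it passed whichever single litter was left out, the 8 estimates running from -4.01 to -3.56. Of 8 tested mural markers 2 were higher and 2 lower, with sums of 239 to 658.5 CPM at E12.5 and 264 to 645 CPM at P0. The sum mixes genes that moved in opposite directions. Des was at 9.14 to 62.2 CPM at E12.5 and 1.52 to 4.67 CPM at P0, and Myh11 at 0.842 to 3.05 CPM and 3.56 to 13.9 CPM. The part of mural cells in the Notch3 level was not tested. Exons of the antisense gene Gm17276 cover 6.03% of the Notch3 exons, and it had 3 to 19 reads at E12.5 and 0 to 7 at P0.

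Notch1 (chr2:26457903-26516663, minus strand), the receptor required for somite segmentation and T cell fate, was at 209.95, 126, 127 and 203 CPM at E12.5 and at 29.6, 42.2, 196 and 66.0 CPM at P0. The E12.5 litters were all high and P0 litters NPD26, NPD27 and NPD30 were all low, but P0 litter NPD28 stood among the E12.5 litters. The log2 fold change was -0.99 (SE 0.53; adjusted p = 0.197), which did not pass. Without NPD28 it was -1.84 with an adjusted p of 0.00468 in the same edgeR test, and the adjusted p over the 18 alternatives ran from 0.00468 to 0.826.

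Notch2 (chr3:98013527-98150361, plus strand), a receptor with roles in skeleton, kidney and B cells, was at 156, 136, 84.0 and 173 CPM at E12.5 and at 155, 245, 421 and 72.8 CPM at P0. P0 held both the lowest litter, NPD30, and the highest, NPD28, and the stages overlapped. Its log2 fold change was 0.71 (SE 0.46; adjusted p = 0.288). Among the P0 litters the leukocyte sum was also lowest in NPD30 (928 CPM) and highest in NPD28 (8052 CPM), with 5402 CPM in NPD26 and 5874 CPM in NPD27. Notch1 was likewise highest in NPD28 (196 CPM), but lowest in NPD26 (29.6 CPM), with 66.0 CPM in NPD30. The part of leukocytes in the Notch1 and Notch2 levels was not tested.

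Notch4 (chr17:34564268-34588503, plus strand), a receptor of endothelial cells, was at 9.86, 4.66, 6.73 and 4.16 CPM at E12.5 and at 4.36, 8.55, 7.25 and 6.34 CPM at P0. The 4 P0 values lay inside the E12.5 range. Its log2 fold change was 0.07 (SE 0.41; adjusted p = 0.923), and leaving out single litters gave values on both sides of 0, from -0.12 to 0.31. Endothelial marker sums were 100.6 to 194.6 CPM at E12.5 and 39.6 to 137.7 CPM at P0, with 2 of 10 markers lower.

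**Figure D2:**
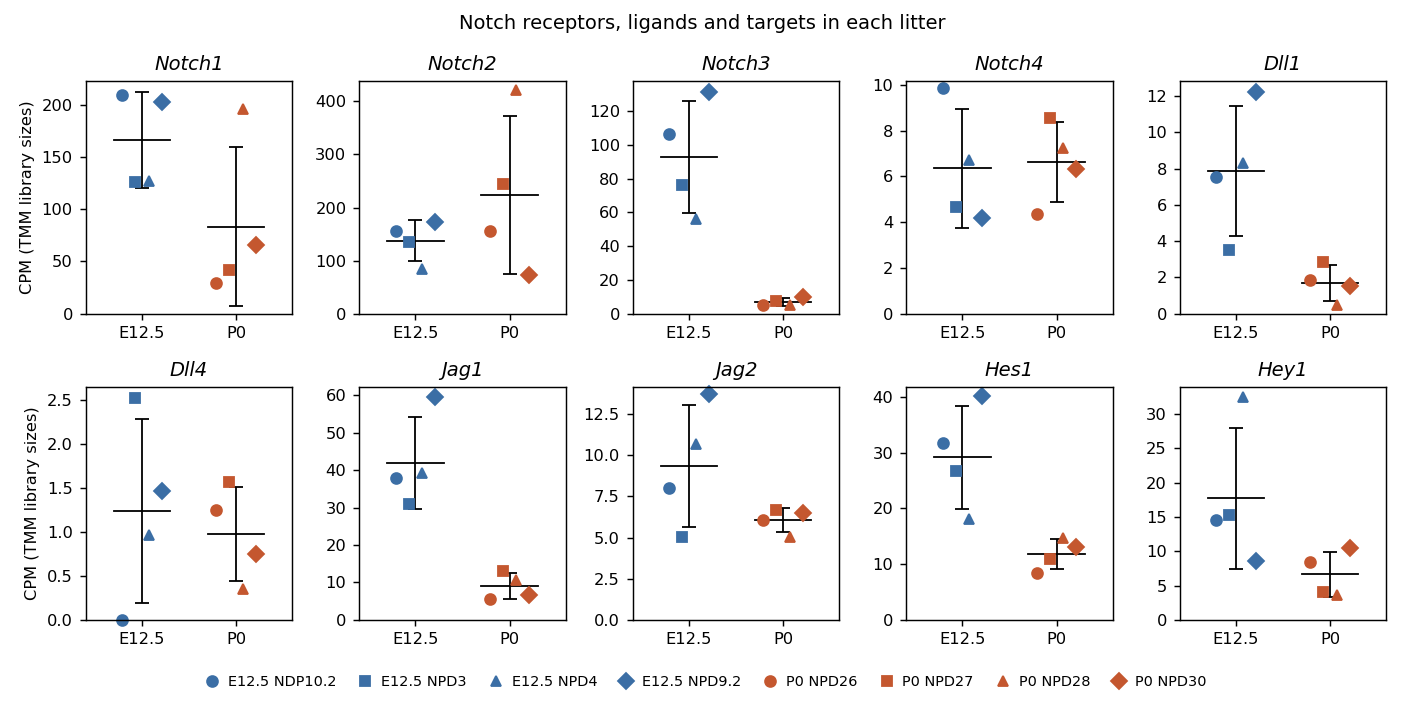
CPM of each of the 10 members in every litter, on linear axes from 0, with E12.5 in blue and P0 in orange; horizontal lines are stage means and error bars are the SD of 4 litters. The stages separate for Notch3, Dll1, Jag1 and Hes1 and overlap for the other 6 genes, and P0 litter NPD28 (triangle) is the high point of Notch1 (196 CPM) and Notch2 (421 CPM).

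Dividing by exon length allowed the receptors to be set beside each other. By the length of all exons they were close to even at E12.5 apart from Notch4. Notch1 made up 28.2% to 36.4% of the summed receptor CPM per kilobase, Notch2 31.8% to 40.1%, Notch3 28.4% to 34.55% and Notch4 1.10% to 3.41%. At P0 Notch2 alone made up 50.35% to 82.2%, more than the other receptors combined in each litter, while Notch1 made up 10.7% to 34.6%, Notch3 1.17% to 9.19% and Notch4 1.66% to 5.87%. By the length of the longest transcript in place of all exons, Notch1 was the largest receptor in each E12.5 litter, at 36.5% to 45.5%. Notch2 then made up 27.2% to 35.6% at E12.5 and Notch3 23.85% to 29.9%. At P0, by that length, Notch2 made up 43.1% in litter NPD30, just under Notch1 at 43.2%, and 64.2% or more in the other litters. The Notch2 and Notch3 shares did not overlap between the stages by either length. Shares of 1 sum are tied to each other, so that the higher Notch2 share does not show a higher Notch2 level. The summed level of the 4 receptors overlapped between the stages, at 24.5 to 47.0 CPM per kilobase at E12.5 and 13.4 to 54.3 at P0.

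The ligands were lower at P0 as a sum. Added up per kilobase, the 4 ligands stood at 7.51 to 15.5 CPM per kilobase at E12.5 and 2.60 to 4.29 at P0, without overlap. Jag1 was the ligand with the highest level per kilobase in all 8 litters, with a mean of 7.19 CPM per kilobase at E12.5 and 1.54 at P0. By the longest transcript, Jag2 stood above Jag1 in P0 litters NPD26 and NPD30.

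Jag1 (chr2:137081456-137116644, minus strand), a Jagged ligand with known roles in vessel, ear and skeletal development, was at 37.8, 30.9, 39.3 and 59.5 CPM at E12.5 and at 5.61, 13.1, 10.5 and 6.64 CPM at P0. Every P0 litter was lower than every E12.5 litter. The means were 41.9 ± 12.3 CPM and 8.97 ± 3.48 CPM (SD, n = 4 each), a log2 fold change of -2.21 (SE 0.34; adjusted p = 0.00109) or 4.63-fold lower. Jag1 passed in all 8 fits with 1 litter left out, at -2.44 to -2.03.

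Dll1 (chr17:15367354-15376872, minus strand), the Delta ligand of presomitic mesoderm and neural progenitors, was at 7.52, 3.50, 8.30 and 12.2 CPM at E12.5 and at 1.87, 2.85, 0.468 and 1.51 CPM at P0. The stages did not overlap, but the gap was narrow between E12.5 litter NPD3 and P0 litter NPD27, and P0 litter NPD28 rested on 4 reads. The log2 fold change was -2.23 (SE 0.59; adjusted p = 0.0163), 4.68-fold lower. It passed in 7 of 8 fits with 1 litter left out, and without E12.5 litter NPD9.2 the log2 fold change was -1.97 with an adjusted p of 0.0505 in the same edgeR test (0.00108 to 0.113 over the 17 alternatives that gave a value). The antisense gene A930024N18Rik covers 20.55% of the Dll1 exons, and it had 0 to 14 reads at E12.5 and 0 to 3 at P0. With no strand setting stated, it is not known whether reads on the shared part were left out as falling on more than 1 gene.

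Jag2 (chr12:112907819-112929776, minus strand), a Jagged ligand needed for limb and palate formation, was at 7.98, 5.05, 10.7 and 13.7 CPM at E12.5 and at 6.07, 6.70, 5.03 and 6.49 CPM at P0. The P0 litters were close together at the lower end of the E12.5 range, NPD28 just under the lowest E12.5 litter. Its log2 fold change of -0.62 (SE 0.38; adjusted p = 0.254) did not pass.

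Dll4 (chr2:119325784-119335962, plus strand), the Delta ligand of arterial endothelium, had 0, 13, 8 and 6 reads at E12.5 and 8, 11, 3 and 5 reads at P0, or 0, 2.52, 0.962 and 1.47 CPM and 1.25, 1.57, 0.351 and 0.755 CPM. These counts were near the floor of 3 reads in both stages, and Dll4 was left out of the test by the filter on low counts. The count of 0 in litter NDP10.2 allows a level of up to 0.662 CPM of that library.

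Of the summed ligand level per kilobase, Jag1 took 64.3% to 70.6% in the E12.5 litters and 37.0% to 66.2% in the P0 litters. Jag2 took 9.66% to 14.6% in the E12.5 litters and 22.4% to 35.5% in the P0 litters. The Jag2 share was higher in each P0 litter than in each E12.5 litter although the Jag2 level itself was not called. The Jag1 shares overlapped, since P0 litter NPD28 reached the E12.5 range. Dll1 took 11.0% to 18.9% in the E12.5 litters and 4.06% to 17.0% in the P0 litters.

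**Figure D3:**
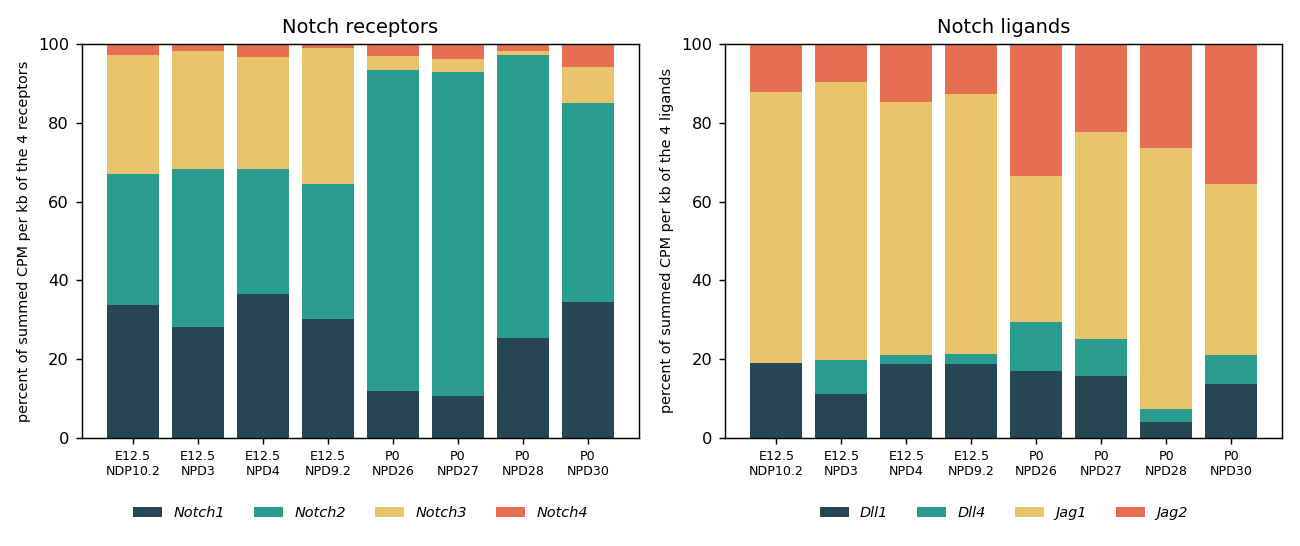
Share of each receptor (left) and each ligand (right) in the summed CPM per kilobase of its family, in percent, with 1 stacked bar for each litter. Notch3 takes 28.4% to 34.55% of the receptor bar at E12.5 and 9.19% or less at P0, where Notch2 takes 50.35% or more; Jag1 is the largest ligand block in all 8 bars, which use the length of all exons (by the longest transcript Jag2 is larger in NPD26 and NPD30, and Notch2 is at 43.1% in NPD30).

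Both target genes were lower at P0. Hes1 (chr16:30064384-30067796, plus strand), a repressor of neurogenic and other differentiation genes that answers to Notch and to other signals, was at 31.7, 26.6, 18.2 and 40.1 CPM at E12.5 and at 8.41, 11.0, 14.7 and 13.0 CPM at P0. The stages did not overlap, with E12.5 litter NPD4 the lowest of its stage and P0 litter NPD28 the highest of its own. The means were 29.2 ± 9.22 CPM and 11.8 ± 2.72 CPM (SD, n = 4 each), a log2 fold change of -1.30 (SE 0.31; adjusted p = 0.00945) or 2.46-fold lower, and Hes1 passed in all 8 fits with 1 litter left out. Without both NDP10.2 and NPD9.2, the litters with the most reads on several genes, it was -0.96 with an adjusted p of 0.0901 in the same edgeR test.

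Hey1 (chr3:8663359-8667256, minus strand), a repressor with roles in vessels, heart and bone, was at 14.6, 15.3, 32.5 and 8.57 CPM at E12.5 and at 8.41, 3.99, 3.63 and 10.4 CPM at P0. The stages overlapped, because P0 litter NPD30 was higher than E12.5 litter NPD9.2. The log2 fold change was -1.43 (SE 0.48; adjusted p = 0.0472), close to the threshold, and it passed in only 2 of the 8 fits with 1 litter left out, those without E12.5 litter NPD9.2 and without P0 litter NPD30. E12.5 litter NPD4, with the highest Hey1 level, was also the litter with the neural tube sum of 2046 CPM. Most of that sum came from genes of neurons. NPD4 also had the highest endothelial sum of the E12.5 litters, 194.6 CPM against 100.6 to 152.5 CPM in the others. Without NPD4 the log2 fold change of Hey1 was -0.96 with an adjusted p of 0.149 in the same edgeR test. Over the 18 alternatives the adjusted p ran from 0.00929 to 0.330, the highest being from the test against a fold change of 2. The next highest was the 0.149 of the edgeR test without NPD4. The part of neuronal or endothelial RNA in the Hey1 level was not tested.

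**Figure D4:**
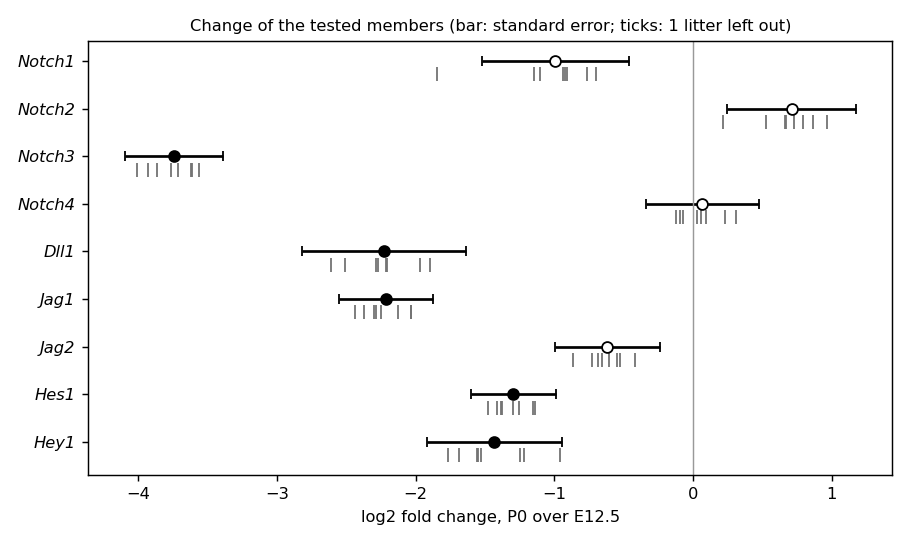
Log2 fold change of P0 over E12.5 for the 9 tested members; circles are the edgeR estimates, filled where the adjusted p was under 0.05, bars are the standard error, and grey ticks are the estimates with 1 litter left out. Notch3 lies furthest from 0 at -3.74, the Notch1 tick at -1.84 is the fit without P0 litter NPD28, and the Notch4 ticks fall on both sides of 0.

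Counted together, 5 of 9 tested members were lower, beside 12.0% of all tested genes, and 4 of 9 had P0 litters wholly below the E12.5 litters, beside 14.4% of all tested genes (29.9% were free of overlap in either direction). The median log2 fold change was -1.30 over the 9 members and 0.04 over all 15467 genes. The members were chosen with earlier results of these data known, so these figures describe the list and are not a test of the pathway. Markers of sclerotome, muscle precursors, Schwann and neural crest cells and red cells fell between the same litters, and their part in the lower Notch3, Jag1, Dll1, Hes1 and Hey1 levels was not tested.

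In order of mean level per kilobase, E12.5 litters ranked Hes1 (14.3 CPM per kilobase), Notch2 (12.7), Notch1 (11.7), Notch3 (11.4), Jag1 (7.19), Hey1 (5.43), Dll1 (1.87), Jag2 (1.34), Notch4 (0.788) and Dll4 (0.322). Each gene overlapped the next in that order. At P0 the order was Notch2 (20.7 CPM per kilobase), Notch1 (5.86), Hes1 (5.78), Hey1 (2.03), Jag1 (1.54), Jag2 (0.872), Notch3 (0.851), Notch4 (0.822), Dll1 (0.397) and Dll4 (0.254). There, only the steps from Hes1 to Hey1 and from Jag1 to Jag2 were free of overlap, and the second of these overlapped when the longest transcript was used as the length. Notch3 thus moved from the level of Notch1 and Notch2 to that of Notch4.

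Of 49 other Notch pathway genes, 43 were tested, 5 were higher and 5 were lower at P0, with a median log2 fold change of -0.15. Neither count stood above the share over all tested genes, 16.0% higher and 12.0% lower. The genes that rose were receptor proteases, a ubiquitin ligase and a histone acetyltransferase, and the genes that fell included the Mastermind-like coactivator Maml3 and the target genes Heyl and Nrarp.

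Of the 7 other Hes and Hey genes, 3 were tested and 1 was lower. Heyl, a target found in vascular smooth muscle and muscle progenitors, was at 23.5, 12.6, 49.3 and 49.5 CPM at E12.5 and 4.05, 13.5, 9.36 and 6.49 CPM at P0. NPD3 was the only E12.5 litter that P0 reached, through NPD27. Heyl was 4.01-fold lower (SE of the log2 fold change 0.49; adjusted p = 0.0120). Hes6 (-0.90) and Hey2 (-1.41) did not pass, and Hes2, Hes3, Hes5 and Hes7 were left out by the filter, Hes5 with 9.26 CPM in E12.5 litter NPD4 and 4.16 CPM or less elsewhere.

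Among 10 genes of receptor turnover, 1 was higher and 2 were lower, numbers too small to set apart from the 16.0% and 12.0% over all tested genes. Dtx3l, a Deltex family ubiquitin ligase that acts with PARP9 in the interferon and DNA damage responses, was at 5.89 to 7.34 CPM at E12.5 and 54.5, 84.8, 67.3 and 25.2 CPM at P0. Its log2 fold change was 3.15 (SE 0.36; adjusted p = 0.000291), and the lowest P0 litter, NPD30, was the one with the lowest leukocyte sum. The part of leukocytes was not tested. Parp9, whose exons cover 8% of those of Dtx3l on the other strand, had 7 to 34 reads at E12.5 and 85 to 423 reads at P0. Nrarp, a target gene that feeds back on the receptor's intracellular domain, was lower by a log2 fold change of -1.57 (adjusted p = 0.0421). It had 6 to 44 reads a litter. Gm38287 shares 79.4% of the Nrarp exon on the other strand and had 0 reads in all litters. With no strand setting stated, it is not known whether reads on the shared part were left out as falling on more than 1 gene. Numbl, a Numb-like adaptor that promotes receptor endocytosis, was lower as well, at -0.87 (adjusted p = 0.0307). Nrarp passed only in the fits without NPD3 or NPD9.2, and Numbl only in those without NPD3, NPD4 or NPD30, of the 8 that left out 1 litter.

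Of 10 receptor proteases, 3 were higher at P0 (2 by limma-voom) and 0 lower (also 0 at an unadjusted p under 0.05, and by DESeq2 and limma-voom), beside 16.0% and 12.0% of all tested genes. Adam17, a sheddase of many membrane proteins that can cleave Notch, was at 42.7, 52.8, 35.6 and 37.0 CPM at E12.5 and 124, 152, 100.03 and 56.0 CPM at P0, without overlap. Its log2 fold change was 1.37 (SE 0.31; adjusted p = 0.00728). Aph1c (3.79, adjusted p = 0.0144) and Aph1b (1.17, adjusted p = 0.0267), subunits of gamma-secretase, were also higher. They are near-identical neighbouring copies, and reads that aligned to both were left out of the counts. The level of each therefore rests on reads that aligned to it alone. Aph1b did not pass without NDP10.2, NPD9.2 or NPD28. Aph1c was at 0 to 3.30 CPM at E12.5. P0 litter NPD30, at 1.96 CPM, lay within that range, and the other P0 litters were at 24.3 to 43.2 CPM. NPD30, also the lowest P0 litter for Adam17, had a leukocyte sum of 928 CPM against 5402 to 8052 CPM in the other P0 litters, and the part of leukocytes in these levels was not tested.

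In the nuclear complex, 1 of 9 genes rose and 1 fell, no more than the 16.0% and 12.0% over all tested genes. Maml3, a coactivator of the RBPJ complex, was at 69.7, 47.4, 47.0 and 69.8 CPM at E12.5 and 20.9, 22.4, 34.5 and 23.1 CPM at P0, without overlap. The log2 fold change of Maml3 was -1.21 (SE 0.26; adjusted p = 0.00538). Kat2b, an acetyltransferase recruited to the complex, rose by 1.82 on the log2 scale (adjusted p = 0.00443), whereas Rbpj itself, at -0.27 (adjusted p = 0.477), did not pass.

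Of 5 receptor glycosyltransferases, which modify the extracellular repeats, Poglut1 alone was called, at -0.83 (adjusted p = 0.0150). Lfng, a Fringe that alters which ligands a receptor answers to, was at 11.5, 9.52, 4.57 and 16.9 CPM at E12.5 and 28.8, 34.2, 44.5 and 7.70 CPM at P0. Its log2 fold change of 1.46 (adjusted p = 0.0616) did not pass, but DESeq2 called it. P0 litter NPD30 was within the E12.5 range for Lfng and the other P0 litters were above it. Of the 4 ligand ubiquitin ligases, 0 were called by edgeR, DESeq2 or limma-voom, and 0 had an unadjusted p under 0.05. Of the 2 other ligands tested, Dll3 and Dner, 0 were called by these tools, and Dll3 (-1.41, adjusted p = 0.105) had an unadjusted p under 0.05. Dlk2 was left out by the filter, and Dlk1, an inhibitory ligand-like protein, was listed at 0 reads in all 8 litters. Counts leave out reads that fall on several genes or align to several places, so that a count of 0 does not show absence.

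**Figure D5:**
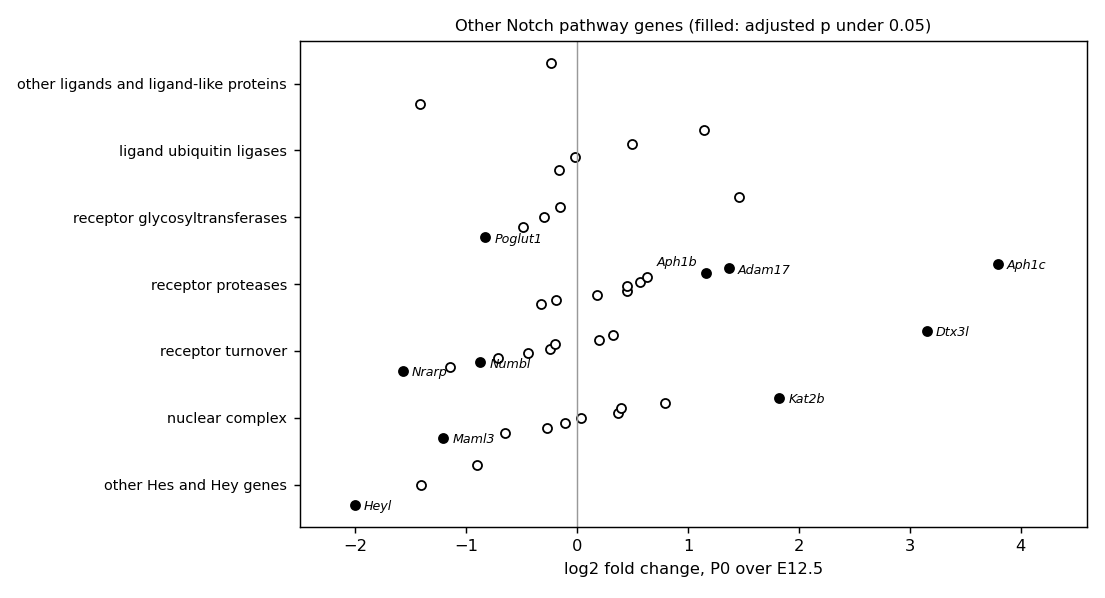
Log2 fold change of P0 over E12.5 for the 43 tested other genes of the pathway, with 1 point per gene in a row for its role; filled and named points had an adjusted p under 0.05. Of the 10 filled points, 5 lie to the right of 0, led by Aph1c at 3.79 and Dtx3l at 3.15, and 5 lie to the left, led by Heyl and Nrarp.

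For each called member, the tested genes with the most alike profile over the 8 litters were sought by the mean absolute difference in log2 CPM, after centring each gene, among 12671 genes. For Notch3 these were Igfbp5, an insulin-like growth factor binding protein (difference 0.16), Mn1 (0.18) and Igf2, an imprinted growth factor (0.21). For Hes1 they were Sh3rf1 (0.12), Trio (0.14) and Krba1 (0.14), and for Jag1 Wdr86 (0.22), the retinoic acid receptor gene Rarb (0.26) and Adamtsl2 (0.26). Dll1 was nearest to Grik2 (0.28), Vash1 (0.28) and Mmp15 (0.32), and Hey1 to Zik1 (0.25), Nipsnap1 (0.27) and Hoxa7 (0.27). Because the genes were picked for likeness over litters of 2 stages, their log2 fold changes are alike by choice, from -4.04 for Mn1 to -1.19 for Trio.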

How the data were processed

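Total RNA of 8 litters was measured by single-end RNA-Seq. The deposited values are raw counts of reads per gene, 1 file per litter, which the authors made with STAR 2.4.0j on GRCm38 and htseq-count on Gencode M4; mm9 is also named in the submitters' processing notes, with no role. The strand setting is not given in the sources used here. Tallies that name no gene (no feature, ambiguous, not unique) were left out, so that 22.6% to 34.8% of tallied reads remained. Symbols were matched for 42462 of 43346 identifiers. Gene positions and exon lengths come from Gencode M21 on GRCm38.

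P0 was compared with E12.5 by edgeR 4.0.16 (R 4.3.3) with TMM, filterByExpr (minimum count 10, minimum total 15) and the robust quasi-likelihood test. Log2 CPM used a prior count of 2. The code was tested on simulated data. Alternatives were other normalizations and filters, DESeq2 1.42.0, limma 3.58.1 with voom, a test against a fold change of 2, thinning to the smallest library, exon length from the longest transcript, and leaving out litters. The members, lists and markers were chosen with earlier results of these data known. Besides the members, the text names up to 3 called genes per list, lowest adjusted p first, each gene left untested, 3 nearest profiles per called member, and a few uncalled genes (Hes6, Hey2, Rbpj, Lfng, Dll3, Dner) chosen after their values were seen.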

Additional observations from a re-analysis of the deposited data

Results flagged for a closer look

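Poglut1, a receptor glycosyltransferase, had a log2 CPM of 5.49 in P0 litter NPD30, whereas the other 3 P0 litters lay between 5.17 and 5.19. The gap to the nearest litter was 0.937 of the whole range, above Dixon's critical value for 4 samples. It was the only one of 40 groups checked to pass that value, and chance flags about 1 in 20 groups. All 4 P0 litters were still below the E12.5 litters for this gene.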

How the results depend on the processing

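No value changed direction in a called result under any alternative run. Tested against a fold change of 2, Notch3 and Jag1 remained, so that 2 members were lower: Dll1 (-2.23, adjusted p = 0.0762), Hes1 (-1.30, adjusted p = 0.288) and Hey1 (-1.43, adjusted p = 0.330) did not pass, 0 other pathway genes were lower and 3 higher, and 1928 genes were called in all. Thinned to the smallest library, Hey1 was at -1.31 (adjusted p = 0.0590). Leaving out NDP10.2 and NPD9.2 together, an alternative chosen after seeing the data, gave Dll1 at -1.86 (adjusted p = 0.113), Hes1 at -0.96 (adjusted p = 0.0901), 3 members lower, 1 other pathway gene lower and 3 higher, and 2581 genes in all. With single litters left out, log2 fold changes ran from -1.84 to -0.70 for Notch1, -2.61 to -1.90 for Dll1 and -1.77 to -0.96 for Hey1, and other pathway genes called lower numbered 3 to 5, with 3 without P0 litter NPD26, NPD27 or NPD28. With the longest transcript as length, Notch1 (17.5) and Hes1 (19.9) at E12.5 and Jag2 (1.19) and Hes1 (8.02) at P0, in CPM per kilobase, moved by more than the SD of the 4 litters, Notch1 ranked above Notch2 at E12.5, and Notch4 ranked above Notch3 at P0. Notch1 at P0 went from 5.86 to 8.78, which is within that SD. Upper quartile scaling shifted the median of all genes by -0.15 on the log2 scale and turned the balance of calls, with 13.61% of genes higher and 15.01% lower at P0. Dll1 had no value where 10 reads in every litter were required. The causes were not tested. No paired analysis was possible because the stages are different litters, and the labels give litter codes, so that a replicate number is only a name. Of the members, Dll4, Dll1 and Notch4 have the lowest read counts, and depth limits them most.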
